A study of Homo sapiens with 38 samples.

Results

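The count table assigns 255 features to the class ncRNA, an RNA type with no further specification. Of these, 128 reached a summed count of at least 1000 over the 38 libraries and are described here, and the other 127 fell below it. The entries carry RNAcentral identifiers and no gene symbol in the files or in the reference tables used here, so they are given by identifier and no function is assigned to them. They were chosen by their summed count, which is given as a description with no test, as are the comparisons with microRNA (miRNA) entries. Just inside the threshold stood entries with 1486, 1323 and 1221 counts, and just outside it entries with 965, 882 and 815. The 128 held 99.9% of the counts of their class and 4.86% of all counts in the table.

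Small RNA was sequenced from KG1a and HL60, wild-type human acute myeloid leukaemia lines with an immature CD34-positive and a promyelocytic phenotype, and from the extracellular vesicles they release, split into large (lEV) and small (sEV). Each source was sequenced after rPAL and as total RNA. In rPAL, sialic acid is oxidised with periodate and coupled to biotin through its aldehyde so that sialylated glycoRNA can be pulled down. The 12 groups were rPAL and total libraries of KG1a cells (n = 4 each) and of HL60 cells, KG1a lEV, KG1a sEV, HL60 lEV and HL60 sEV (n = 3 each). Cells for cell RNA grew in medium with 10% FBS, while vesicles came from cells kept for 2 days in medium with no FBS, so source and serum cannot be told apart. All cells carry the labelled genotype WT. Nothing in the labels ties replicates to separate cultures, so p-values measure the spread between these libraries, which may be technical.

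MicroRNAs are made from hairpins that Drosha cuts out of longer transcripts and Dicer then trims to the mature strand that loads into Argonaute. Sequence databases can hold the hairpin, the mature strand and further records of unspecified type for the same stretch of RNA, so a short read can be assigned to more than one entry. GlycoRNAs are small non-coding RNAs that carry sialylated glycans and are displayed on the outer face of the cell. Vesicles carry small RNA of their parent cell, including miRNA, tRNA and Y RNA pieces.

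rPAL libraries held 2380745 to 15532758 counts and total libraries 5498168 to 14892937. Of the 128 entries, 31 to 126 had a count in an rPAL library and 117 to 128 in a total library. The line markers followed the labels, with mean MPO at 2.49 CPM (counts per 1000000 library counts) in HL60 cells and 0.0181 CPM in KG1a cells, and mean CD34 at 0.0704 CPM in HL60 cells and 2.95 CPM in KG1a cells, all in total RNA. The granule genes PRTN3 and AZU1 averaged 0.115 and 0.234 CPM in HL60 cells and 0 in KG1a cells, and ELANE was at 0 in both. Erythroid, liver and muscle miRNA genes (MIR451A, MIR122, MIR133A1 and MIR1-1) were at 0 in every group, and HBA1, HBA2, HBB and ALB averaged at most 0.209 CPM in any group. miRNA genes with a symbol took few counts in this table, with 281 on 12 let-7 genes over all libraries. The 0 values of the 4 miRNA genes are therefore no check on other sources of RNA. Some libraries stood apart from their group, namely rPAL replicates 2 and 3 of KG1a cells, which held more precursor miRNA than replicates 1 and 4, total replicate 2 of HL60 lEV, which held fewer counts on the 128 entries, and rPAL replicate 3 of KG1a sEV, which had the lowest mean correlation with its group. The numbers of called entries in comparisons that use these libraries are given without them below, with the median in some. Shares of counts and constant ratios are given with all libraries. A further library, rPAL replicate 3 of KG1a lEV, had only 7404 features with a count. Fold changes of entries named there are given without it, but the number called is not.

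The class was uneven. Summed counts ran from 1221 to 1456004 with a median of 23477.5, 85 entries had at least 10000 counts, and the 6 most abundant held 37.9% of the counts on the 128. In total RNA of KG1a cells the most abundant entry, URS00007E41D7, had 19063, 21479, 15997 and 16963 CPM in replicates 1 to 4, and in total RNA of HL60 cells it had 0.927, 0.671 and 1.26 CPM. URS00003B95DA, of nearly the same summed count, had 14614, 17700.4, 14827 and 18570.1 CPM in KG1a cells and 7656, 6410.3 and 9158 CPM in HL60 cells. One of the leading entries was thus close to absent from HL60 cells and the other abundant in both lines. URS0000B8BDC7 averaged 3944 CPM in HL60 cells and 8517 CPM in KG1a cells, and URS00005C2E31 averaged 2538 CPM in HL60 cells and 5522 CPM in KG1a cells. The means of URS00003B7674 were 903 CPM in HL60 cells and 9733 CPM in KG1a cells, and those of URS0000D54CAD were 258 CPM in HL60 cells and 4816 CPM in KG1a cells. In all 6, the 4 KG1a values lay above the 3 HL60 values, an order that 23.4% of all features tested showed. The 6 were picked by summed count, and each had its highest count in a total library of KG1a cells. That choice favours entries high in KG1a cells, so the shared order is a description only. CPM values are per library total and not per length, since no length is used here, so they order libraries and not entries.

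The 128 entries took a smaller share of rPAL libraries than of total libraries in all 6 sources. In KG1a cells the share of library counts was 1.64, 5.29, 6.04 and 0.310% in rPAL replicates 1 to 4, against 14.4, 15.7, 14.2 and 15.4% in total RNA. In HL60 cells it was 0.273, 0.247 and 0.197% in rPAL libraries, against 6.54, 4.97 and 6.81% in total RNA. The rPAL and total libraries did not overlap in either line, but the KG1a rPAL libraries spread far more than the total ones. In KG1a lEV the share was 0.152, 1.13 and 0.457% after rPAL, against 6.34, 4.67 and 5.32% in total RNA, and in KG1a sEV it was 0.196, 0.999 and 0.449% after rPAL, against 6.99, 5.87 and 6.36% in total RNA. In HL60 lEV it was 0.342, 0.274 and 0.256% after rPAL, against 2.08, 0.400 and 2.34% in total RNA, where replicate 2 held the low value. HL60 sEV had 0.214, 0.414 and 0.653% after rPAL, against 4.02, 4.19 and 3.30% in total RNA. No pair of groups overlapped, and the share was highest in KG1a cells. In bulk RNA, fewer cells or vesicles with an entry and less of it in each cannot be told apart. Over the median entry, 94.6% of its own counts came from total libraries, which together held 62.4% of all counts, and 5 entries had more counts in rPAL than in total libraries.

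**Figure D1:**
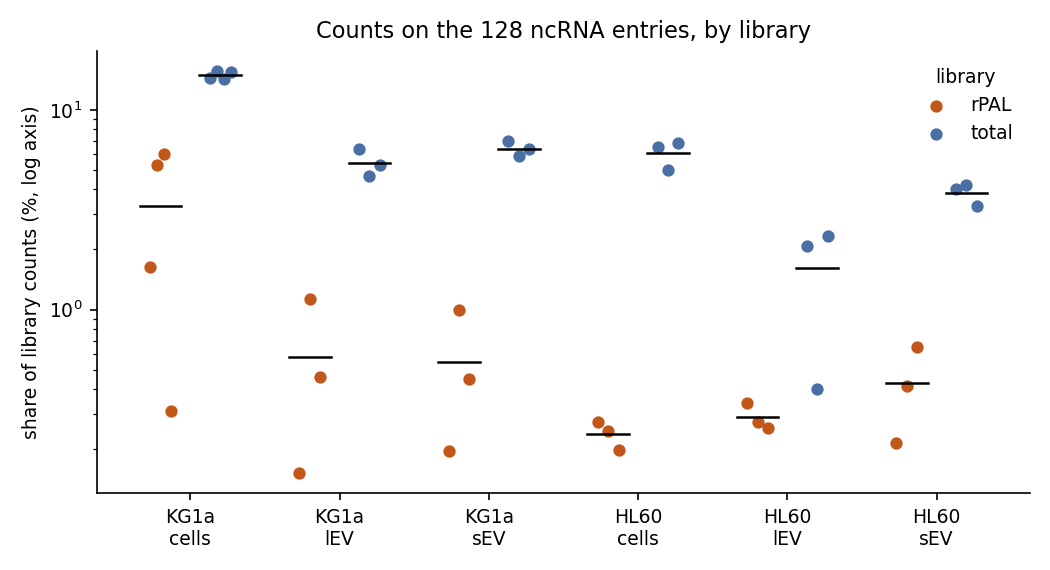
Share of library counts (percent, log axis) on the 128 ncRNA entries in each of the 38 libraries, with rPAL libraries left of total libraries in each source, points as libraries and bars as group means. Every rPAL library lies below every total library of its source, and the 4 rPAL libraries of KG1a cells run from 0.310% to 6.04%.

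The share of precursor miRNA entries (class pre_miRNA) moved with it. In total RNA it averaged 46.2% of counts in KG1a cells, and there were 28.0 to 37.3 counts on the 128 entries per 100 precursor counts across the 19 total libraries. In the rPAL libraries of cells the same ratio was 24.4 to 36.9, within or near the range of total RNA. In the rPAL libraries of vesicles it reached 77.4, in HL60 sEV. One entry, URS00002E857A, made up 62.8, 70.4 and 73.2% of the counts on the 128 in the HL60 sEV rPAL libraries, against 0.118, 0.207 and 2.19% in the total libraries. In HL60 lEV it made up 68.2, 31.0 and 68.0% in the rPAL libraries, against 0.0109, 0.0494 and 0.0790% in the total libraries. With that entry left out, a choice made after its values were seen, the ratio in rPAL libraries was 23.7, 22.9 and 17.0 in HL60 sEV and 20.4, 25.5 and 17.3 in HL60 lEV, below every total library. In KG1a vesicles URS00002E857A made up 7.75, 0.610 and 43.1% in the lEV rPAL libraries and 17.9, 4.72 and 54.7% in the sEV rPAL libraries, with replicate 3 highest in both. Without it their ratios were 33.9, 39.4 and 29.7 in lEV and 35.7, 39.9 and 31.3 in sEV, within or above the range of the total libraries.

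About 1 in 4 of the comparable entries kept a near-constant ratio to a miRNA entry, and none had near-identical counts in every library. An entry was taken to follow another when their log2 counts (count + 1) differed by at most 0.2 in every library in which either had at least 20 counts, over at least 10 libraries. By this rule 0 of 128 followed a pre_miRNA or miRNA entry, 0 followed a feature with a gene symbol and 0 followed another ncRNA entry. At counts near 20, counting error alone can exceed 0.2. Reads split at random between a pair of entries could thus fail the rule, so the 0 counts do not show that no reads are shared. The closest approach to a miRNA entry was a largest difference of 0.28 on the log2 scale. The largest difference from the closest miRNA entry had a median of 2.02 over the 128, was at most 0.5 for 10 entries, at most 1 for 34 and over 2 for 64. For 92 of the 128 the closest miRNA entry was a pre_miRNA.

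A looser measure asked for a constant ratio, with an SD of the log2 ratio of at most 0.2 over at least 10 libraries in which both entries had at least 50 counts. Of the 119 entries with enough such libraries, 30 held a constant ratio to a miRNA entry, 28 of them to a pre_miRNA and 2 to a miRNA. All 30 ratios were near 1, with median log2 ratios from -0.38 to 0.19. The 30 held 34.1% of the counts on the 128. Their SD had a median of 0.135, against 0.0973 from counting error alone if the counts of both entries are independent. In 21 of the 30 it was at most 1.5 times that error. Each partner was the miRNA entry of lowest SD, and pairs over 0.2 were dropped, so an SD near that error follows in part from the choice. Over the same 119 entries, 0 held such a ratio to a snoRNA entry and 0 to a tRNA entry. Likewise, 0 of 99 snoRNA entries, 0 of 405 tRNA entries and 0 of 867 protein-coding features with at least 1000 counts held one to a miRNA entry, while 34 of 152 pre_miRNA entries held one to another pre_miRNA. Whether the same reads were counted in both entries was not tested, since the treatment of reads with several hits is not given in the sources used here.

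The pairs covered the abundance range. URS00003B95DA summed to 1432648 counts and its pre_miRNA partner to 1438939, with a median ratio of 0.996 over 33 libraries. In KG1a cells this ratio was 0.706, 0.868, 0.714 and 0.666 after rPAL, against 1.00, 0.996, 0.990 and 1.00 in total RNA. In HL60 cells it was 1.09, 0.983 and 0.781 after rPAL, against 0.999, 0.998 and 1.00 in total RNA. Ratios of URS0000149452 moved the other way in HL60 cells, at 1.04, 1.02 and 1.01 after rPAL, against 0.753, 0.771 and 0.795 in total RNA. An SD within the limit thus allowed shifts with rPAL. URS0000416056 summed to 509657 and its pre_miRNA partner to 553478, with a median ratio of 0.922 and an SD of 0.0972 on the log2 scale over all 38 libraries. URS00003B7674 summed to 740415 against 797896 for its pre_miRNA partner. Of the 6 most abundant entries, URS00003B95DA and URS00003B7674 thus had such a partner and the other 4 did not. URS00005A4DCF, with the lowest SD of the 30 at 0.0699, summed to 12565 against 13346 for its partner. The fewest counts belonged to URS000058BF17, with 1848 against 1906 for its partner. The widest ratio among the 30 belonged to URS00004C47FB, at 0.769 of its pre_miRNA partner over 10 libraries, all of total RNA. After rPAL, URS00004C47FB had 0, 18, 9 and 0 counts in KG1a cells, against 60, 109, 150 and 2 for its partner. In HL60 cells it had 0, 2 and 3 counts after rPAL, against 4, 20 and 15 for its partner. The constant ratio of this pair thus describes total RNA only, and the partner kept more counts after rPAL in the cells of both lines.

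Some entries paired with each other. In a constant ratio by the same measure stood 6 pairs, and 10 of these 12 entries had no constant ratio to a miRNA entry. URS0000B33886 and URS0000476BE1 summed to 99223 and 98594 counts, and both held a ratio near 1 to the same pre_miRNA of 98213 counts. URS00007E435D and URS00000BE495 summed to 488524 and 441434 counts with a median ratio of 1.10 over 34 libraries. URS00007E3443 and URS00004E8341 had a ratio of 1.25 over 22 libraries. The remaining 79 comparable entries, with 51.5% of the counts on the 128, held a constant ratio to neither a miRNA entry nor another ncRNA entry, and 9 entries had too few libraries to compare. Of those with at least 10000 counts, URS0000B8E2B8 and URS000050B527 came least close to any miRNA entry, with largest differences of 5.78 and 5.49 on the log2 scale. URS0000B8E2B8 was nevertheless paired, with the ncRNA entry URS0000157026, at a ratio of 1.29 over 29 libraries. In HL60 cells URS0000B8E2B8 had 8.77, 10.8 and 12.1 CPM after rPAL, against 807, 789.7 and 1134 CPM in total RNA, and URS0000157026 had 8.09, 9.95 and 9.75 CPM after rPAL, against 610.3, 605 and 873 CPM in total RNA. URS000050B527 had 5.40, 5.59 and 13.1 CPM after rPAL in HL60 cells, against 272, 221 and 288 CPM in total RNA. In all 3, every rPAL library lay below every total library of HL60 cells.

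**Figure D2:**
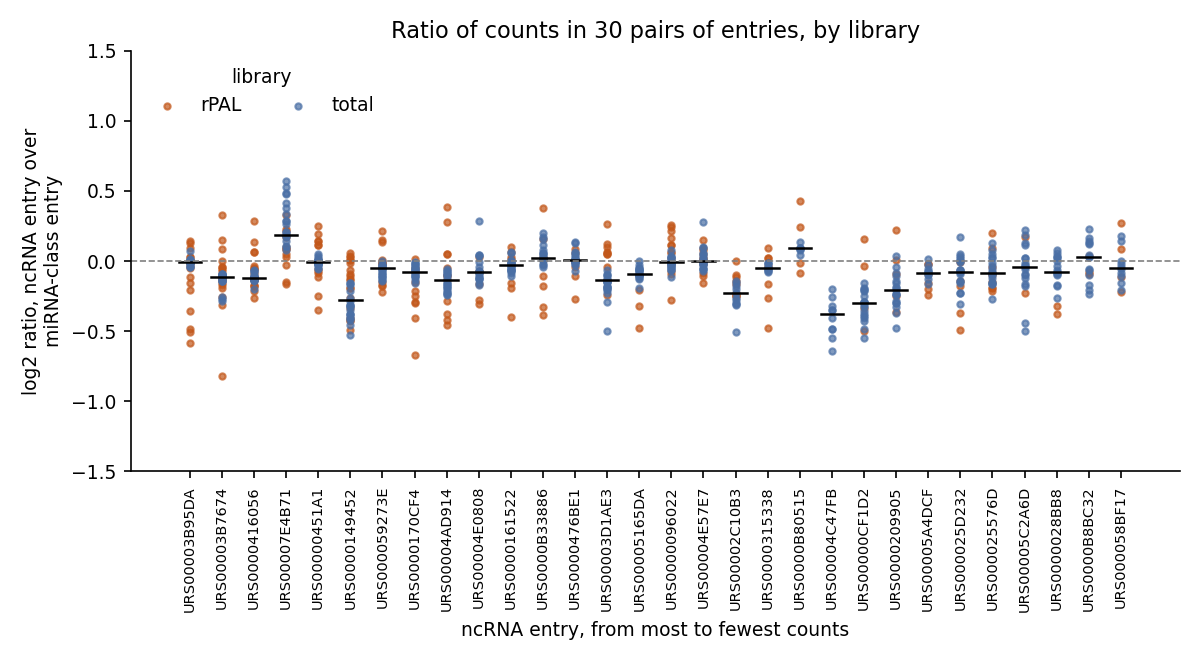
Log2 ratio of the counts of each of 30 ncRNA entries over those of its pre_miRNA or miRNA partner, in each library in which both have at least 50 counts, coloured by rPAL or total and ordered from the most to the fewest counts, with bars at the medians. The medians lie between -0.38 and 0.19, close to the line of equal counts.

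After rPAL, most of the entries were lower than in the total RNA of the same cells. Tests were edgeR quasi-likelihood fits over all features with Benjamini-Hochberg adjustment, called at an adjusted p under 0.05, and fold changes are after TMM scaling. An entry can pass the filter on low counts through its total libraries alone, and summed counts came mostly from total libraries, so the counts of called entries describe the entries and support nothing further. In KG1a cells 123 of the 128 passed the filter on low counts, of which 87 were called, 86 lower and 1 higher, against 18.8% called, 9.86% lower and 8.89% higher, among all 6592 features tested. Their median log2 fold change was -3.64, against -0.04 over all features, and in 94 of them the rPAL values lay below all total values, against 14.0% of all features. URS00004C47FB had 0, 1.65, 0.880 and 0 CPM after rPAL, against 189, 228, 259 and 336 CPM in total RNA (log2 fold change -9.15 ± 1.17 SE, adjusted p = 5.23e-04). URS00000F0F49 had 7.99, 17.3, 17.0 and 0.901 CPM after rPAL, against 852, 1119.6, 858 and 769 CPM in total RNA (log2 fold change -6.81 ± 0.78 SE, adjusted p = 3.32e-04). These fell furthest of the called entries that averaged 50 CPM or more without overlap between groups. Without rPAL replicate 2 the log2 fold change of URS00004C47FB was -10.20. With only replicates 1 and 4 of the rPAL libraries, an alternative added after seeing the data, 103 entries were called, of which 102 were lower, and the median was -4.74.

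In HL60 cells 120 entries were tested, of which 108 were called, 107 lower and 1 higher, against 38.6% called, 18.0% lower and 20.6% higher, among all 6902 features. The median was -5.07, against 0.04 over all features, and 112 entries did not overlap in the lower direction, against 23.8% of all features. URS0000007FBA had 0, 0.104 and 0.157 CPM after rPAL, against 239, 164 and 274 CPM in total RNA. These are 2 counts after rPAL and 9715 in total RNA, 2466-fold lower per library total with a 95% exact counting interval of 683 to 20368 that covers counting error only. URS00004C47FB, which also led in KG1a cells, had 0, 0.207 and 0.472 CPM after rPAL, against 111, 55.3 and 133 CPM in total RNA (log2 fold change -8.94 ± 0.76 SE, adjusted p = 3.05e-05), and without rPAL replicate 3 its log2 fold change was -9.93. The most abundant entry in HL60 cells, URS00003B95DA, had 81.6, 53.0 and 38.7 CPM after rPAL, against 7656, 6410.3 and 9158 CPM in total RNA (log2 fold change -7.33 ± 0.35 SE, adjusted p = 1.36e-06). In both lines its rPAL libraries lay far below its total libraries.

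For 5 of the 6 most abundant entries, the fold change in KG1a cells was nearer 0 than the median of the tested entries, and URS00005C2E31, URS0000D54CAD and URS00003B7674 were not called. URS00007E41D7 had 1817, 6590.2, 7871 and 378 CPM after rPAL in KG1a cells, against 19063, 21479, 15997 and 16963 CPM in total RNA (log2 fold change -2.62 ± 0.69 SE, adjusted p = 0.0193). URS0000B8BDC7 had 1028, 3724, 4217 and 230.0 CPM after rPAL, against 8429, 8922, 8445 and 8272 CPM in total RNA (log2 fold change -2.36 ± 0.66 SE, adjusted p = 0.0257). For both, rPAL replicates 2 and 3 were well above replicates 1 and 4, and no rPAL library reached a total library. URS00005C2E31 had 996, 3457, 3792 and 209 CPM after rPAL, against 5199, 5736, 5589 and 5562 CPM in total RNA (log2 fold change -1.85 ± 0.64 SE, adjusted p = 0.0682). URS0000D54CAD had 782, 3792, 3227 and 185 CPM after rPAL, against 3554, 4424, 3952 and 7332 CPM in total RNA (log2 fold change -1.76 ± 0.69 SE, adjusted p = 0.106). In these 4, rPAL replicate 4 was the lowest and replicates 2 and 3 the highest, and rPAL replicate 2 of URS0000D54CAD lay within the range of its total libraries. URS00003B7674 had 874, 4701, 3778 and 63.9 CPM after rPAL, against 8006, 10310.3, 10546 and 10070.5 CPM in total RNA (log2 fold change -2.55 ± 0.84 SE, adjusted p = 0.0544). The exception was URS00003B95DA, which had 103, 463, 443 and 23.5 CPM after rPAL, against 14614, 17700.4, 14827 and 18570.1 CPM in total RNA (log2 fold change -6.47 ± 0.83 SE, adjusted p = 5.23e-04).

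The miRNA classes of the table had lower medians after rPAL as well. In KG1a cells 130 of 220 pre_miRNA entries and 127 of 301 miRNA entries were called lower, and 1 and 5 higher. The medians were -3.09 for pre_miRNA and -2.42 for miRNA entries. In HL60 cells the counts were 179 of 201 and 163 of 207 lower, with 6 and 11 higher and medians of -5.21 and -4.77. For tRNA entries 250 of 466 were called higher and 5 lower in KG1a cells, and 314 of 463 higher and 17 lower in HL60 cells, so the tRNA class went the other way from the 128 entries. Of the snoRNA entries, 27 of 353 were called lower in KG1a cells and 81 of 367 in HL60 cells. Since all are shares of 1 library, a class that gains share lowers the others, and TMM scaling sets where 0 lies. Of the 9 pathway genes DROSHA, DGCR8, XPO5, DICER1, TARBP2 and AGO1 to AGO4, 7 were tested in KG1a cells with 0 called, and 7 in HL60 cells with 1 called higher. The symbol-named let-7 genes (12) summed to 281 counts, the miR-17-92 genes and paralogues (10) to 5 and 9 myeloid miRNA genes to 404 over all libraries. Of the let-7 genes 1 was tested in KG1a cells and called lower and 0 were tested in HL60 cells, of the miR-17-92 genes 0 were tested, and of the myeloid genes 1 was tested and called lower in each line.

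In KG1a lEV 67 of 115 tested entries were called lower after rPAL and 0 higher, against 10.2% called, 7.07% lower and 3.16% higher, among all 5857 features, with a median of -4.87 against -0.30. URS00004E8341 had 0, 3.66 and 0 CPM after rPAL, against 216, 129.7 and 151 CPM in total RNA (log2 fold change -7.04 ± 1.67 SE, adjusted p = 0.0241). URS00005165DA had 0.295, 5.71 and 0 CPM after rPAL, against 251, 221 and 251 CPM in total RNA (log2 fold change -6.87 ± 1.55 SE, adjusted p = 0.0241). Groups did not overlap for 103 of the tested entries, against 26.2% of all features. The calls rested on few libraries: 41 entries were called without rPAL replicate 1 and 0 without total replicate 1, where both entries above had an adjusted p of 0.0730, and 0 with no filter on low counts, where both had 0.0559. At an unadjusted p under 0.05 these settings had 86 and 101 entries, and DESeq2 on all libraries called 83. Over all features, leaving out 1 library at a time gave 0 to 2117 calls, against 599 with all libraries, so the loss was not particular to the entries. Without rPAL replicate 2, the rPAL library highest for both, the log2 fold changes were -13.66 for URS00004E8341, which then had no rPAL count, and -10.28 for URS00005165DA, and without rPAL replicate 3 they were -6.46 and -6.26.

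In KG1a sEV 75 of 119 tested entries were called lower after rPAL and 0 higher, against 6.61% called, 6.13% lower and 0.48% higher, among all 8128 features, with a median of -5.16 against -0.42. URS00000CF1D2 had 0.901, 0.163 and 0 CPM after rPAL, against 80.2, 128 and 145 CPM in total RNA (log2 fold change -8.42 ± 1.77 SE, adjusted p = 0.00230). URS00005165DA had 2.10, 6.68 and 0 CPM after rPAL, against 343, 691 and 470.0 CPM in total RNA (log2 fold change -7.76 ± 1.48 SE, adjusted p = 7.19e-04). The log2 fold change of URS00000CF1D2 was -10.42 without rPAL replicate 1, and that of URS00005165DA was -8.86 without rPAL replicate 2. Neither entry overlapped between the groups, as for 109 of those tested, against 21.3% of all features. Without rPAL replicate 1 or without rPAL replicate 2, 0 entries were called, with 88 and 110 at an unadjusted p under 0.05, and both named entries had an adjusted p of 0.118 and 0.104. Without rPAL replicate 3 there were 61 calls and a median of -4.74. Without total replicate 1 there were 24 calls, without total replicate 2 there were 44, with no filter on low counts 3, where URS00000CF1D2 had an adjusted p of 0.0704, and DESeq2 on all libraries called 93. Among all features, leaving out 1 library at a time gave 0 to 282 calls, against 537 with all libraries, so here too the loss was not particular to the entries.

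In HL60 lEV 85 entries were tested, of which 54 were called lower and 2 higher after rPAL, against 31.3% called, 18.9% lower and 12.3% higher, among all 3219 features. The median was -5.90, against 0.08 over all features, and -5.70 with 3 counts per group taken as a floor for the 22 entries that had no count after rPAL. URS0000170CF4 had 0, 0 and 6.83 CPM after rPAL, against 555, 216 and 598 CPM in total RNA (log2 fold change -9.03 ± 1.97 SE, adjusted p = 0.0128), and without total replicate 2 its adjusted p was 0.0564. URS0000D5361A had 26.7, 7.17 and 0.402 CPM after rPAL, against 1491, 291 and 875 CPM in total RNA (log2 fold change -7.67 ± 1.47 SE, adjusted p = 0.0107). Total replicate 2 was the lowest of the total libraries for both, and still lay above every rPAL library. The log2 fold change of URS0000170CF4 was -15.59 without rPAL replicate 3, the one with counts, and that of URS0000D5361A was -9.66 without rPAL replicate 1 and -8.31 without total replicate 2. The number called was 87, 93 and 87 without rPAL replicate 1, 2 or 3, and 25, 33 and 28 without total replicate 1, 2 or 3. For each of these runs the filter on low counts was applied again, so the entries tested were not the same 85. All features moved as well, with 202 to 2516 called over these runs, against 1006 with all libraries.

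In HL60 sEV 89 of 113 tested entries were called lower after rPAL and 0 higher, against 18.8% called, 16.3% lower and 2.51% higher, among all 3619 features. As 55 of them had no count in the 3 rPAL libraries, the fitted median of -8.09 depends on a small constant added to the counts, and with a floor of 3 counts for the rPAL group it was -5.56. URS00005165DA had 0 counts in the rPAL libraries, against 269.5, 304 and 215 CPM in total RNA, at least 836-fold lower at that floor. URS0000AACEDB had 0 counts in the rPAL libraries, against 246, 235 and 145 CPM in total RNA, at least 644-fold lower. These were the entries of the smallest fitted fold change, with adjusted p = 0.00352 and 0.00401 in edgeR. The number called was 53 without rPAL replicate 1, 36 without rPAL replicate 2, 43, 52 and 48 without total replicate 1, 2 or 3, and 47 with no filter on low counts. Of all features, 149 to 373 were called with 1 library left out, against 681 with all libraries.

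The 6 sources share no library, so the calls can be set side by side. All 6 comparisons tested 79 of the 128 entries, and 30 of these were called lower in each, against 4.41% of the 1768 features tested in all 6. Of the pre_miRNA entries tested in all 6 it was 31 of 106, of the miRNA entries 12 of 53, of the snoRNA entries 3 of 120 and of the tRNA entries 0 of 398. The share of the ncRNA entries lay near that of the pre_miRNA entries and far above that of the tRNA and snoRNA entries. Over all 128, mean CPM was lower after rPAL in all 6 sources for 102 entries and in 5 for 17. At least 1 call in the lower direction was found for 116 entries, 3 were called higher in at least 1 source, no entry was called in both directions, and 9 were called in none. These counts over sources, and those of mean CPM, were not made for all features, so how unusual they are cannot be told. The 30 entries with a constant ratio to a miRNA entry and the rest had medians of -3.70 and -3.63 in KG1a cells, -4.52 and -4.94 in KG1a lEV and -4.87 and -5.17 in KG1a sEV. For HL60 the medians were -5.22 and -4.97 in cells, -5.72 and -5.90 in lEV and -5.60 and -8.46 in sEV, where the fitted values of entries with no rPAL count are no bound. The distance was widest in HL60 sEV, and no test of it was made. Fold changes of those 30 and their partners differed by a median of 0.09 on the log2 scale in KG1a cells and 0.14 in HL60 cells, by under 0.5 in 144 of 168 pair and source combinations and by over 1 in 16. The partners were chosen for a constant ratio over these same libraries. Close fold changes therefore follow largely from that choice and are given as a description only.

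**Figure D3:**
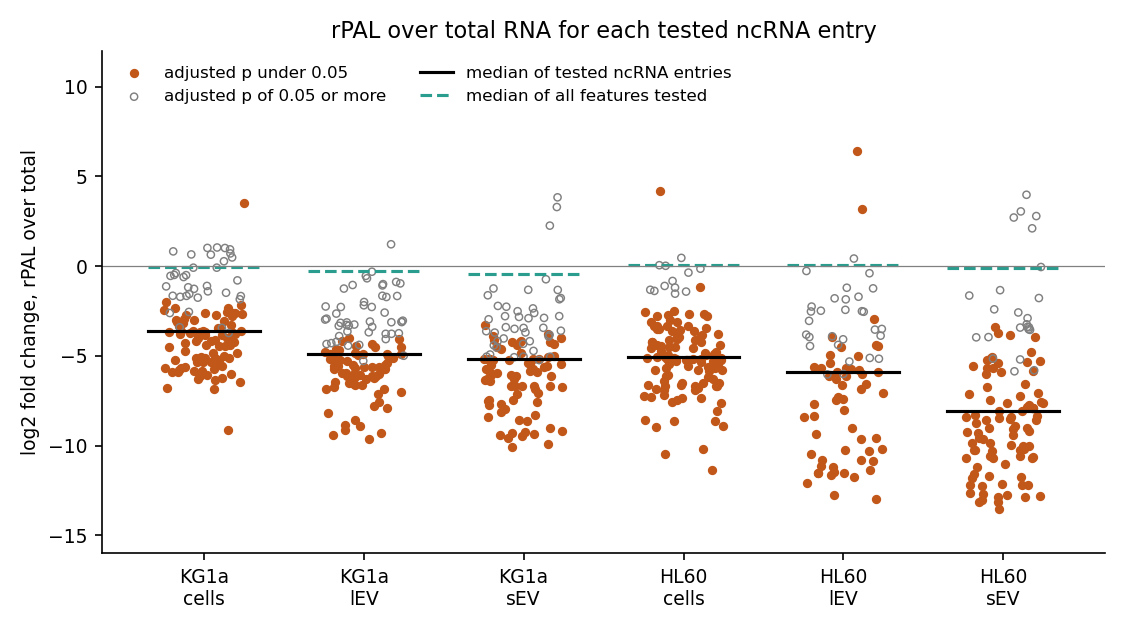
Log2 fold change of rPAL over total for each tested ncRNA entry in the 6 sources, filled where the adjusted p is under 0.05, with solid bars at their median and dashed bars at the median of all features tested. Medians of the entries run from -8.09 in HL60 sEV, where 55 entries had no count after rPAL and their fitted values are no bound, to -3.64 in KG1a cells, and those of all features lie near 0.

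URS00002E857A went the other way. In HL60 cells it had 66.8, 116 and 107 CPM after rPAL, against 4.49, 4.70 and 3.77 CPM in total RNA (log2 fold change 4.21 ± 0.42 SE, adjusted p = 6.15e-05). In HL60 lEV it had 2337, 849 and 1737 CPM after rPAL, against 2.26, 1.98 and 18.5 CPM in total RNA (log2 fold change 6.42 ± 1.08 SE, adjusted p = 0.00732). Both calls held in every alternative run, and neither pair of groups overlapped. The log2 fold change in HL60 lEV was 5.68 without rPAL replicate 1 and 5.66, 5.72 and 7.63 without total replicate 1, 2 or 3. In HL60 sEV it had 1342, 2912 and 4777 CPM after rPAL, against 47.5, 86.7 and 723 CPM in total RNA (log2 fold change 3.05 ± 1.19 SE, adjusted p = 0.126). There too every rPAL library exceeded every total library, but total replicate 3 was far above the other total libraries and the test did not pass. In KG1a cells it had 289, 408, 501 and 372 CPM after rPAL, against 147, 173, 184 and 276 CPM in total RNA (log2 fold change 0.82 ± 0.44 SE, adjusted p = 0.267). In KG1a lEV it had 118, 69.3 and 1969 CPM after rPAL, against 266, 162 and 193 CPM in total RNA (log2 fold change 1.21 ± 1.12 SE, adjusted p = 0.568), and these groups overlapped. In KG1a sEV it had 350.3, 472 and 2459 CPM after rPAL, against 57.4, 179 and 65.9 CPM in total RNA (log2 fold change 3.29 ± 1.13 SE, adjusted p = 0.0634). Replicate 3 was the highest rPAL library in both kinds of KG1a vesicle. Its largest difference from the closest miRNA entry was 3.09 on the log2 scale, and it held a constant ratio to none.

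Higher after rPAL were also URS0000324096 in HL60 lEV and URS00003380CC in KG1a cells. URS00003380CC was chosen after its values were seen, since its mean lay under 50 CPM. URS0000324096 had 303, 172 and 266 CPM after rPAL in HL60 lEV, against 17.7, 3.88 and 9.47 CPM in total RNA (log2 fold change 3.19 ± 0.73 SE, adjusted p = 0.0133). Its adjusted p was 0.0767 by DESeq2, 0.112 with no filter on low counts, 0.0651 without rPAL replicate 1, and 0.0570, 0.0722 and 0.0913 without total replicate 1, 2 or 3, so the call was lost in each. The log2 fold change was 2.34 without rPAL replicate 1 and 2.58 without total replicate 2. The groups of HL60 lEV did not overlap, nor did those of HL60 sEV, where no call was made. In HL60 sEV it had 212, 649.9 and 452 CPM after rPAL, against 55.8, 41.0 and 96.5 CPM in total RNA (log2 fold change 2.71 ± 0.86 SE, adjusted p = 0.0596). In HL60 cells the groups overlapped, at 18.2, 36.7 and 29.6 CPM after rPAL, against 24.3, 23.0 and 30.2 CPM in total RNA (log2 fold change -0.15 ± 0.40 SE, adjusted p = 0.816). In KG1a cells they also overlapped, with 1362, 2877, 3985 and 113 CPM after rPAL, against 1154, 1155, 1259.5 and 1493 CPM in total RNA. URS00003380CC had 4.03, 3.86, 2.05 and 2.83 CPM after rPAL in KG1a cells, against 0.145, 0.493, 0.188 and 0.168 CPM in total RNA (log2 fold change 3.49 ± 0.84 SE, adjusted p = 0.0114). This call too was lost in several settings, with an adjusted p of 0.151 with no filter on low counts and 0.0639, 0.0732 and 0.0610 without total replicate 1, 3 or 4.

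**Figure D4:**
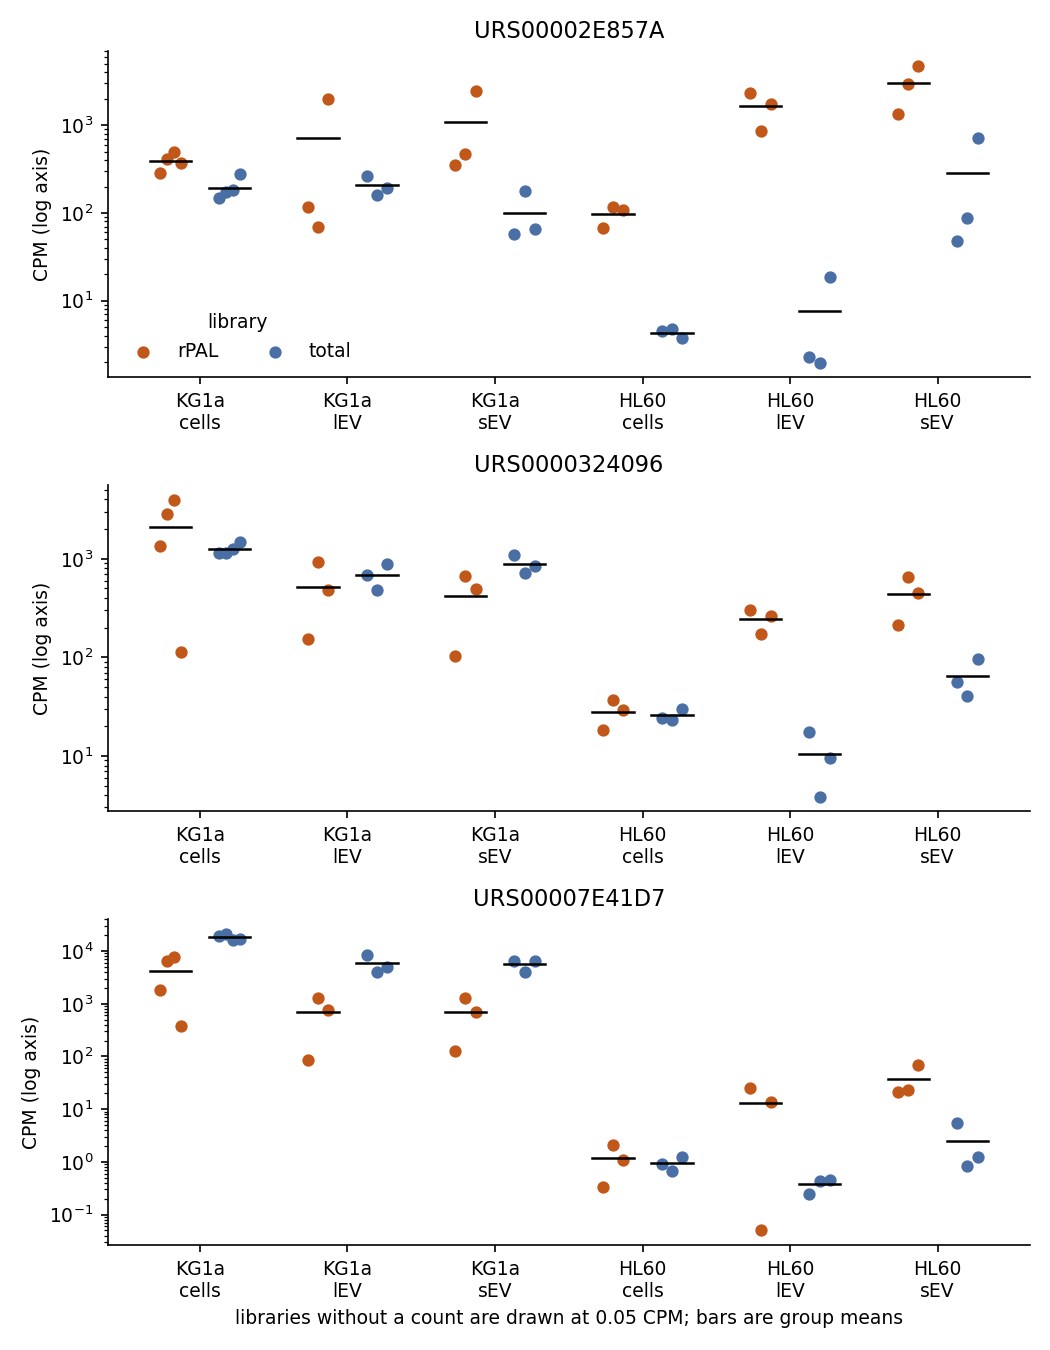
CPM (log axis) of URS00002E857A, URS0000324096 and URS00007E41D7 in each library, rPAL left of total in each source, points as libraries and bars as group means, with libraries without a count drawn at 0.05 CPM. URS00002E857A lies above its total libraries in all rPAL libraries of the 3 HL60 sources, and URS00007E41D7 separates the KG1a from the HL60 sources.

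Many of the entries differed between the lines in the total RNA of cells. Of 127 tested, 18 were called higher and 79 lower in HL60 than in KG1a cells, against 39.9% called, 18.4% higher and 21.5% lower, among all 8655 features. The median log2 fold change was -1.07, and -0.01 over all features. The values of 85 entries lay below all KG1a values, as did those of 23.4% of all features. URS00002B3783 had 536, 381 and 499.8 CPM in HL60 cells, against 0.797, 1.07, 0.471 and 0.923 CPM in KG1a cells (log2 fold change 9.23 ± 0.36 SE, adjusted p = 3.22e-13). URS00004565E5 had 129, 92.6 and 141 CPM in HL60 cells, against 7.68, 9.04, 8.39 and 10.7 CPM in KG1a cells (log2 fold change 3.83 ± 0.30 SE, adjusted p = 5.72e-09). Every HL60 library lay above every KG1a library for both, and the most abundant entry of all did the reverse. URS00007E41D7 had 0.927, 0.671 and 1.26 CPM in HL60 cells, against 19063, 21479, 15997 and 16963 CPM in KG1a cells (log2 fold change -14.15 ± 0.36 SE, adjusted p = 7.21e-16). URS0000315338 had 1 count in the 3 HL60 libraries and 17257 in the 4 KG1a libraries, 15381-fold lower per library total with a 95% exact counting interval of 2760.1 to 607533. By the ratio measure above it held a ratio of 0.968 to a pre_miRNA over 17 libraries. The line difference of URS00007E41D7 was also present in vesicles, with 0.252, 0.439 and 0.444 CPM in HL60 lEV against 8582, 4033 and 5019 CPM in KG1a lEV and 5.46, 0.839 and 1.25 CPM in HL60 sEV against 6518, 3946 and 6541 CPM in KG1a sEV, all in total RNA. In HL60 sEV its rPAL libraries lay above its total libraries without passing the test, at 21.5, 23.1 and 68.9 CPM after rPAL against 5.46, 0.839 and 1.25 CPM in total RNA (log2 fold change 3.97 ± 1.51 SE, adjusted p = 0.113).

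**Figure D5:**
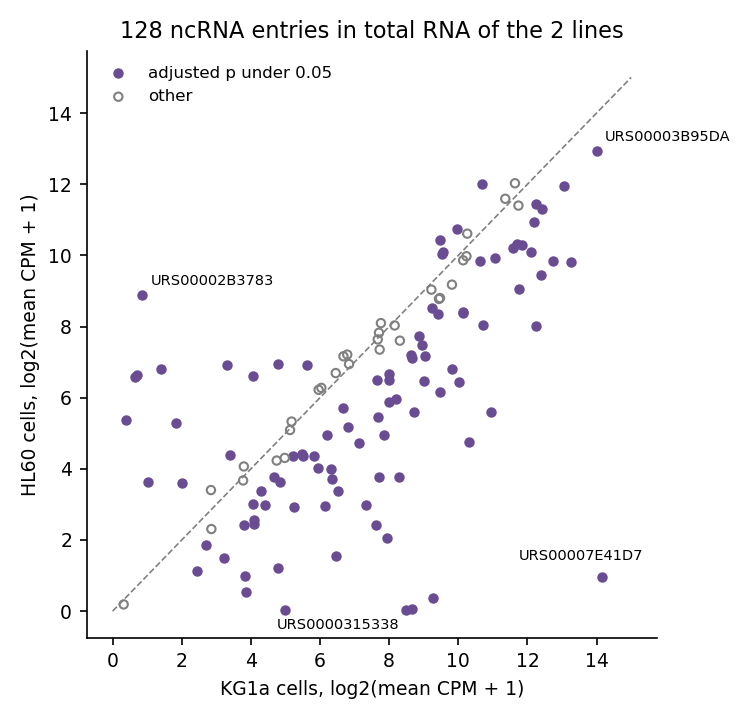
Mean CPM of the 128 ncRNA entries in total RNA of HL60 cells (vertical, n = 3) and KG1a cells (horizontal, n = 4), both as log2(mean CPM + 1), filled where the adjusted p is under 0.05, with a dashed line of equal values. More filled points lie below the line, 79 called lower in HL60 cells and 18 called higher, and URS00007E41D7 lies at the far right near the bottom.

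In KG1a most entries were lower in the total RNA of vesicles than in that of the parent cells, and in HL60 fewer were called. The lEV and sEV comparisons of a line share the cell libraries. In KG1a, 99 of 123 tested entries were called lower and 0 higher in lEV than in cells, against 52.3% called, 28.5% lower and 23.8% higher, among all 7780 features, with a median of -1.71 against -0.01. In KG1a sEV 107 of 123 were called lower and 0 higher, against 45.1% called, 22.1% lower and 23.0% higher, among all 8725 features, with a median of -2.37 against 0.22. URS0000B80515 had 0.475, 0.278 and 0.204 CPM in lEV and 0.536, 0 and 0.463 CPM in sEV, against 183, 993, 664 and 206 CPM in cells (log2 fold change -10.59 ± 0.79 SE, adjusted p = 9.09e-07 in lEV). It was close to absent from both kinds of vesicle. URS00004C47FB had 18.8, 2.60 and 3.77 CPM in lEV and 41.1, 2.56 and 6.14 CPM in sEV, against 189, 228, 259 and 336 CPM in cells (log2 fold change -5.01 ± 0.66 SE, adjusted p = 2.39e-05 in lEV). Replicate 1 was its highest library in both kinds of vesicle, and without it the log2 fold change was -6.45 in lEV and -7.18 in sEV, against -5.02 with all sEV libraries. The pre_miRNA class had medians of -1.58 in lEV and -2.10 in sEV, near those of the entries.

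In HL60 lEV 40 of 120 tested entries were called lower than in cells and 1 higher, against 27.3% called, 15.2% lower and 12.1% higher, among all 6527 features, with a median of -1.42 against 0.16. The number called was 27 without cell replicate 1 and 27 without cell replicate 3, 77 without lEV replicate 1, 52 without lEV replicate 2, of which 4 were higher, and 71 with library totals in place of TMM. The median was -2.35 without lEV replicate 1 and -0.96 without lEV replicate 2. Calls over all features ran from 1025 to 2594 with 1 library left out, against 1785 with all libraries. In HL60 sEV 57 of 124 were called lower and 5 higher, against 26.7% called, 12.8% lower and 13.9% higher, among all 7555 features, and leaving out cell replicate 1, 2 or 3 gave 37, 34 and 40 calls. Calls over all features there ran from 531 to 3978 with 1 library left out, against 2018 with all libraries. In HL60 sEV 42 of the 128 entries had a higher mean than in cells and 86 a lower one. Of the tested entries, the sEV libraries of 21 lay above all cell libraries and those of 67 lay below them, against 17.3% of all features below. The share of all features above was not computed, so the 21 are a description only. URS00002620A7 had 32.3, 4.97 and 19.6 CPM in lEV and 89.3, 79.6 and 47.9 CPM in sEV, against 1217, 570.4 and 1227 CPM in cells (log2 fold change -4.83 ± 0.76 SE, adjusted p = 0.00101 in lEV). URS00004C47FB had 2.10, 0.146 and 0.444 CPM in lEV and 4.73, 5.03 and 2.40 CPM in sEV, against 111, 55.3 and 133 CPM in cells (log2 fold change -4.82 ± 0.54 SE, adjusted p = 0.00105 in sEV). Both were called lower in either kind of vesicle. Without lEV replicate 1 the log2 fold change in lEV was -5.83 for URS00002620A7 and -7.75 for URS00004C47FB, against -5.82 for URS00004C47FB with all libraries. URS00002E857A had 47.5, 86.7 and 723 CPM in sEV, against 4.49, 4.70 and 3.77 CPM in cells (log2 fold change 5.67 ± 1.00 SE, adjusted p = 0.00511), where sEV replicate 3 was the highest. Without that replicate the log2 fold change was 3.61. Its adjusted p was 0.0651, 0.0578 and 0.0642 without cell replicate 1, 2 or 3. URS000019907A had 149.7, 154 and 115 CPM in sEV, against 39.0, 30.9 and 47.7 CPM in cells (log2 fold change 1.60 ± 0.35 SE, adjusted p = 0.0108). That call was also lost without any 1 of the cell libraries, with an adjusted p of up to 0.144 without cell replicate 1, and with no filter on low counts, at 0.0883.

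The change with rPAL differed between the lines for few entries. In the interaction fit, the difference of the rPAL over total change in HL60 cells minus that in KG1a cells passed for 11 of 128 entries, 2 higher and 9 lower in HL60, against 1.81% of all 11632 features, 0.636% higher and 1.18% lower. They had a median difference of -1.44 against -0.37. For URS00002E857A the difference was 3.28 ± 0.65 SE (adjusted p = 0.0175), from changes of 4.21 ± 0.42 SE in HL60 cells and 0.82 ± 0.44 SE in KG1a cells. In the cells of both lines, URS00002E857A was higher in every rPAL library than in any total library of the same cells. URS00005D12AC had 151, 62.6 and 43.2 CPM after rPAL and 69.1, 46.1 and 97.2 CPM in total RNA in HL60 cells, against 101, 49.5, 118 and 8.82 CPM after rPAL and 303, 741, 757 and 1051 CPM in total RNA in KG1a cells, a difference of 3.62 ± 0.91 SE (adjusted p = 0.0446). URS00000BE495 had 28.5, 43.7 and 51.1 CPM after rPAL and 1185, 1045 and 1302 CPM in total RNA in HL60 cells, against 845, 2716, 3927 and 134 CPM after rPAL and 4132, 2709, 2979 and 2538 CPM in total RNA in KG1a cells, a difference of -4.02 ± 0.88 SE (adjusted p = 0.0265). The rPAL and total libraries of URS00005D12AC overlapped in HL60 cells and not in KG1a cells, and those of URS00000BE495 overlapped in KG1a cells and not in HL60 cells. With KG1a rPAL replicates 1 and 4 alone, the median difference of the entries was -0.44 against -0.08 over all features, and 54 of 128 were above 0, as were 28 with all libraries. Without HL60 rPAL replicate 1 the difference of URS00005D12AC was 2.88. The number of calls changed with most libraries left out. The number called was 0 without HL60 rPAL replicate 3 or without HL60 total replicate 1, 2 or 3, where 53, 48, 49 and 48 entries had an unadjusted p under 0.05. It was 1 and 2 without HL60 rPAL replicate 1 or 2, and 6, 1, 1 and 2 without KG1a total replicate 1, 2, 3 or 4. Without KG1a rPAL replicate 1, 2 or 4 it was 24, 6 and 40, with KG1a rPAL replicates 1 and 4 alone 7, and DESeq2 called 26. Of all features, 19 to 595 were called with 1 library left out, against 211 with all libraries.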

How the data were processed

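Counts per feature in 38 small RNA libraries, deposited by the authors as raw whole-number counts, were used as given. The submitters' processing notes name the aligner Bowtie2 and the build GRCh38, also called hg38. The counting program, its annotation and the treatment of reads with several hits are not given in the sources used here, so entries that overlap may share reads. The protocol of the labels used the MGIEasy small RNA kit with gel size selection and a DNBSEQ-G400 sequencer. Each of the 38 columns had the name of a labelled sample, with 0 identical pairs. Symbols from GENCODE release 29 matched 57355 of 90127 features and 0 of the 128 entries.

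Each comparison used edgeR 4.0.16 (R 4.3.3) on all features that passed filterByExpr, with TMM scaling, robust quasi-likelihood tests and Benjamini-Hochberg adjustment at 0.05. The SE is the log2 fold change over the square root of the F statistic. CPM is a count over its library's total, from Python 3.11.15 and pandas 2.3.3. Only the groups compared entered a fit. With a library left out, the filter was applied again to the remaining libraries, so the features tested can differ from those of the main fit. The fits were tested on simulated data for rPAL against total, with changes placed in features of mid-range CPM. Log2 changes of 3 were recovered for 79.5% of tested features in KG1a cells, 99% in HL60 cells and 0.543% in HL60 sEV. For changes of 6 it was 100, 100 and 52.2%. A missing call in HL60 sEV is therefore no sign that an entry did not change. Alternatives were DESeq2 1.42.0, other scalings, no filter on low counts, left-out libraries, a replicate block, and other limits for constant ratios. Intervals and floors cover counting error only.

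Named entries are the 6 of highest summed count, in each comparison the 2 highest and 2 lowest fold changes among called entries that averaged 50 CPM or more without overlap of the groups, and the 2 with at least 10000 counts least close to a miRNA entry. No entry followed a feature with a symbol or another ncRNA entry, so that part of the rule named 0. Entries named as examples of pairs, and URS00003380CC, were chosen after their values were seen. The members and lists were chosen with earlier results of these data known.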

Additional observations from a re-analysis of the deposited data

Results flagged for a closer look

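In the groups of 4 libraries, the gap between the most extreme library and the others was large for its group in 2 of 58 sets checked. The sets reuse the same libraries of KG1a cells and are not independent, so no rate from chance is set beside this. URS00004E8341 had 434 CPM in total replicate 1 of KG1a cells, against 387 to 394 CPM in the other replicates. URS00002B3783 had 0.0978 CPM, from 1 count, in rPAL replicate 3 of KG1a cells and no count in the other replicates.

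The change with rPAL differed between HL60 and KG1a cells, by the interaction test of the difference itself, for URS00005D12AC at 3.62 on the log2 scale, for URS00002E857A at 3.28 and for URS00000BE495 at -4.02. The direction of each was the same in all 20 alternatives, and the call was lost in 14, 5 and 9 of them, with an adjusted p of at most 0.150, 0.0953 and 0.0988.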

How the results depend on the processing

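The median log2 fold change of the 128 entries kept its sign under every setting in all 12 comparisons, and no result on a named entry changed direction, while 11 of 32 such results lost their call in some alternative. Leaving out 1 library each in turn gave 0 to 90 called entries in KG1a lEV, 0 to 61 in KG1a sEV, 25 to 93 in HL60 lEV and 36 to 68 in HL60 sEV for rPAL against total, 27 to 77 in HL60 lEV and 34 to 70 in HL60 sEV against cells, and 0 to 40 for the difference between the lines. The number called over all features moved as well, as given with each of these comparisons above. With no filter on low counts 0, 3, 47 and 23 entries were called in KG1a lEV, KG1a sEV and HL60 sEV after rPAL and in the difference between the lines. With library totals in place of TMM scaling, 71 were called in HL60 lEV against cells and 4 in the difference between the lines. The totals moved the median of all features most in HL60 lEV after rPAL, by 1.44, in KG1a sEV against cells, by 1.12, and in HL60 lEV against cells, by -0.77. DESeq2 called 26 and KG1a rPAL replicates 1 and 4 alone 7 in the difference between the lines. Of entries with at least 10000 counts, 24 were called in HL60 lEV against cells and 64 between the lines. Within 0.5 in every library, or within 0.2 in total libraries alone, 10 entries followed a miRNA entry, and 1 did so where at least 100 counts were asked for. A constant ratio was held by 6 entries at an SD of at most 0.1 and by 56 at 0.3. When rRNA counts were removed from the totals, the share after rPAL minus that in total RNA was -5.82 percentage points in KG1a lEV, -8.56 in KG1a sEV and -3.97 in HL60 sEV, against -4.86, -5.86 and -3.41 with it. Same-numbered libraries deviated from their group means with correlations of -0.138 to 0.135, in no comparison over 0.1 for every pair, so the numbers were not taken as pairs, and in 0 of 11 comparisons did every library correlate best with its own number. A replicate block gave 65 calls in HL60 lEV against cells, 1 of them higher, and 3 in the difference between the lines, all lower. URS00003380CC had an adjusted p of 0.0664 under the block in KG1a cells. The fewest entries with a count, 31, were in rPAL replicate 3 of HL60 sEV, which held 2380745 counts. At near-equal depth, rPAL replicate 1 of KG1a sEV had 93 entries with a count (3331112 counts) and rPAL replicate 2 of HL60 sEV had 35 (3383583 counts). How far depth sets these numbers was not tested.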
